A study of Oryza sativa with 6 samples.

Results

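Calcium-decoding protein kinases and their sensors were compared between shoots of the rice mutant line dst and shoots of the japonica cultivar Zhonghua11. Members were all probe sets whose single gene carries CPK, CDPK, CIPK or CBL followed by digits as a whole name, with or without the prefix Os, in the platform annotation or an NCBI gene table. The rule used names and no measured value. It took 65 probe sets of 51 genes, out of 17905 genes with a probe set of their own, and these divide into 20 CPK genes, 24 CIPK genes and 7 CBL genes. The gene table names 63 such genes, and the 12 without a single-gene probe set, among them CBL1, OsCIPK03, OsCIPK09 and OsCIPK15, were not analysed here. The 3 dst samples came from the mutant line and the 3 wild-type samples from Zhonghua11, all of them shoots of 25-day-old seedlings kept on days of 11 h light (26 °C) and nights of 13 h (22 °C). The labels call the samples biological replicates, and the sources used here do not say which allele dst carries, from which cultivar it came or whether plants were pooled. Every sample had an Affymetrix rice array to itself, and each probe set has a signal in arbitrary linear units.

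Calcium ions act as a second messenger in plant cells, and stress, hormones and light change their level in the cytosol. Calcium-dependent protein kinases (CPK, also written CDPK) carry a kinase domain and a calmodulin-like domain with calcium-binding EF hands in the same protein, so they both sense calcium and phosphorylate targets. Calcineurin B-like proteins (CBL) are sensors without enzyme activity that bind calcium and dock onto CBL-interacting protein kinases (CIPK), which are then released from autoinhibition, often at the plasma membrane or the vacuole. In rice and Arabidopsis members of both systems act on ion channels and transporters, on NADPH oxidases that make reactive oxygen species, and on responses to salt, drought, cold and abscisic acid. The gene behind the mutant, DST, encodes a zinc finger protein known from drought and salt tolerance, where it controls genes of hydrogen peroxide metabolism in guard cells. The comparison asks whether the transcripts of this signalling module differ in the mutant without a stated stress treatment.

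None of the 51 genes passed an adjusted p of 0.05 in limma, in either direction, with the brightest probe set standing for each gene. The background was 0.67% of all genes, 52 higher and 68 lower in dst among 17905, so the members' count of 0 is close to that low background. Counted by probe set, none of the 65 member probe sets passed, against 0.439% of all probe sets in either direction and 0.25% lower in dst. Among the brightest probe sets of the 51 genes the smallest adjusted p was 0.469, and at an unadjusted p under 0.05 there were 2 of 51 genes, OsCPK24 and OsCIPK01, against 12.1% of all genes (8.71% of all probe sets). The groups did not overlap in 3 of 51 genes, against 18.4% of all genes, and in the other 48 they did. The median log2 difference (dst minus wild type) was -0.04 for both the 20 CPK genes and the 31 CIPK and CBL genes, beside 0.02 for all genes. These medians moved with the arrays used. The CIPK and CBL median was 0.106 with replicates 1 and 2 only, 0.0411 without dst replicate 3 and 0.0235 without wild-type replicate 2, and the CPK median ran from -0.124 to -0.000581 with 1 array left out. A higher mean log2 signal in dst was seen in 10 of 20 CPK, 9 of 24 CIPK and 2 of 7 CBL genes, beside 54.1% of all genes. The median size of the difference, whatever its direction, was 0.15 for the members and 0.17 for all genes. In 50 of 51 genes, all but OsCPK3, the difference was smaller than the wider of the ranges of the replicates within a group, as it was in 16009 of all 17905 genes. These are bulk shoots, so fewer cells of a type and less RNA per cell cannot be told apart in any of these values.

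The arrays bounded most of these differences. In 40 of 51 genes the 95% interval of the log2 difference lay between -1 and 1, which leaves out a 2-fold difference in either direction, as it did in 74.4% of all genes. A 1.5-fold difference was left out for 52.9% of the members and 47.9% of all genes. All 36 members with a mean signal of at least 500 were bounded within 2-fold, with standard errors of 0.09 to 0.27 on the log2 scale. Of the 8 members with a mean signal between 100 and 500, 4 were so bounded. None of the 7 members under 100 was, with standard errors of 0.46 to 1.03. Among all genes the bounded share was 96.1% at 500 and above, 66.7% between 100 and 500 and 0.80% under 100. The 11 genes that were not bounded are OsCPK2, OsCPK6, OsCPK12, OsCPK21, OsCPK22, OsCPK29, OsCIPK12, OsCIPK16, OsCIPK29, OsCIPK30 and CBL5. For these the interval of the difference includes 2-fold in at least 1 direction.

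**Figure D1:**
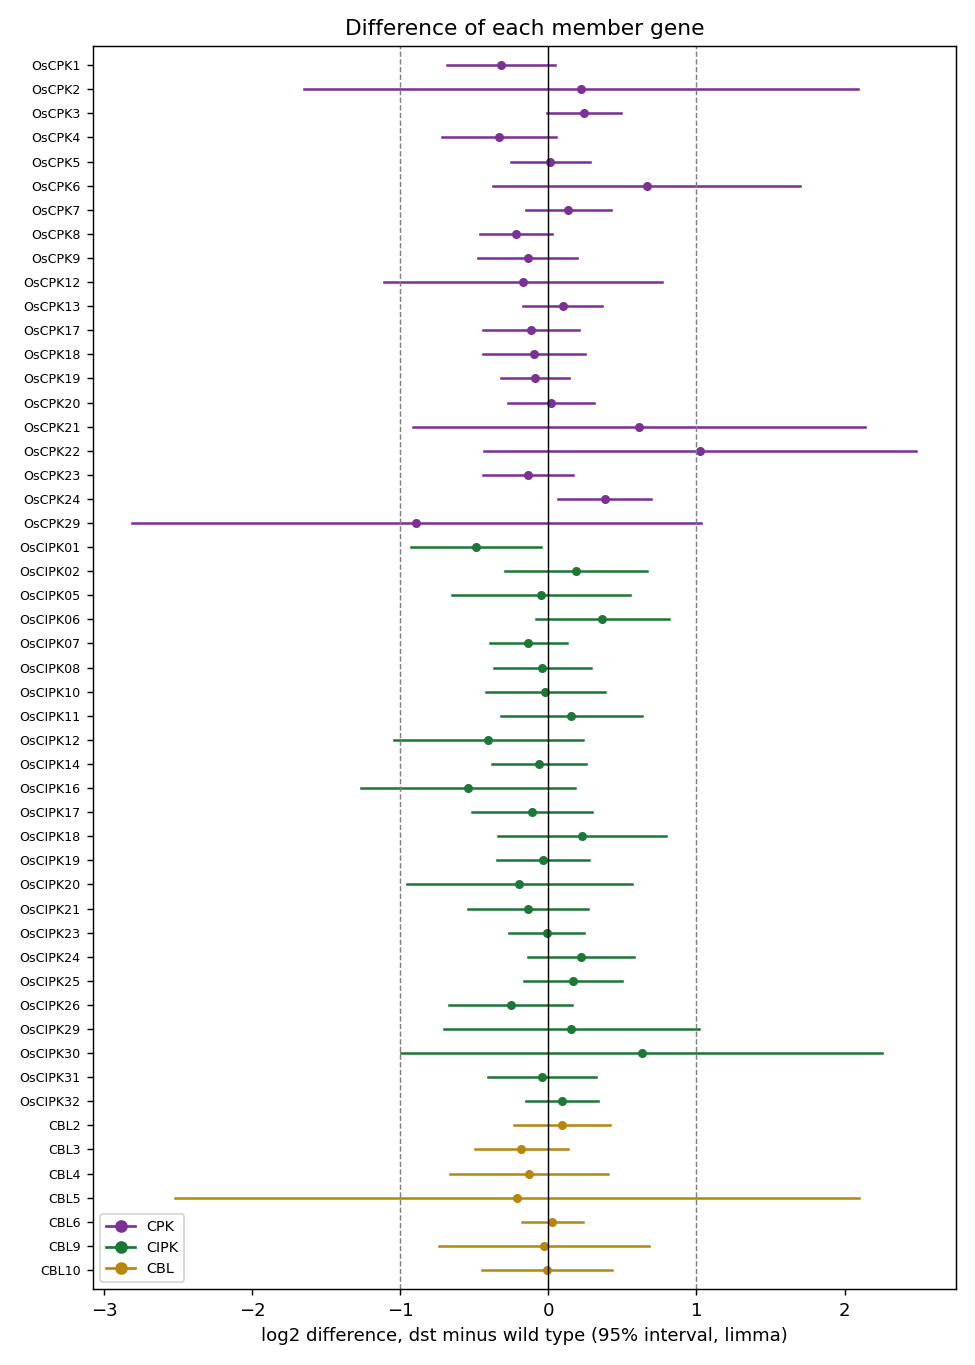
Log2 difference, dst minus wild type, of each of the 51 member genes (points) with its 95% interval from limma (lines); CPK genes are purple, CIPK genes green and CBL genes ochre, and the dashed lines mark 2-fold. Of the 51 intervals, 40 lie between the dashed lines, and the long ones belong to genes of low signal such as OsCPK29 and CBL5.

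**Figure D2:**
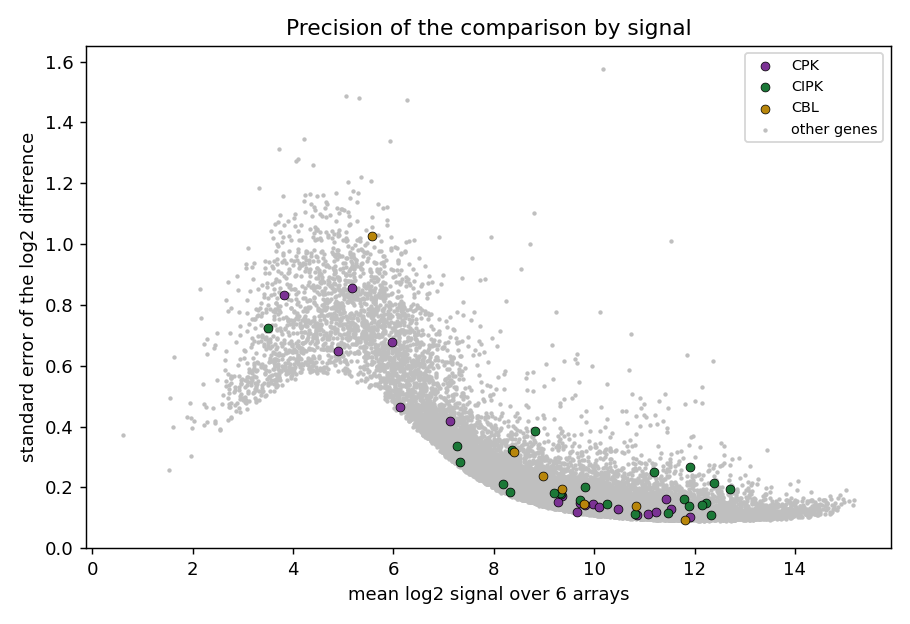
Standard error of the log2 difference (vertical axis) against the mean log2 signal over 6 arrays (horizontal axis) for the 51 members (coloured by family) and for all other genes with a probe set (grey). The members follow the same course as the other genes, with errors of 0.09 to 0.27 at signals of 500 and above and of 0.46 to 1.03 below 100.

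Among the CPK genes, OsCPK24, a kinase known in rice for a role in cold tolerance, had signals of 1006, 1122 and 959 in dst shoots, against 883, 822 and 678 in wild-type shoots. All 3 dst values lay above the wild-type values. The log2 difference was 0.38 ± 0.14 (SE), or 1.30-fold with a 95% interval of 1.04 to 1.62, with an adjusted p of 0.469. OsCPK3 measured 2399, 2165 and 2510 in dst and 1843, 1969 and 2170 in the wild type. The lowest dst value fell just under the highest wild-type value, and the log2 difference was 0.24 ± 0.11 with an adjusted p of 0.592. Under no alternative fit did either gene pass, with adjusted p down to 0.222 for OsCPK24 and 0.325 for OsCPK3.

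In the other direction, OsCPK8 measured 1745, 1760 and 1668 in dst, against 1840, 1996 and 2208 in the wild type. Among the brightest probe sets of the CPK genes, only that of OsCPK8 had all 3 dst values below the wild-type values. The log2 difference of OsCPK8 was -0.22 ± 0.11 with an adjusted p of 0.627. OsCPK4, which raises tolerance to salt and drought when overexpressed in rice, had signals of 593, 712 and 482 in dst and of 790, 784 and 656 in the wild type. The groups overlapped by a single dst array, the log2 difference was -0.33 ± 0.17, and the adjusted p was 0.650. OsCPK1 measured 2763, 2810 and 1977 in dst and 3626, 3036 and 2705 in the wild type, also with overlap, and its log2 difference was -0.32 ± 0.16 with an adjusted p of 0.643. For OsCPK4 and OsCPK1 the third dst array gave the lowest of the 6 values.

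Other CPK genes held nearly level signals on the 6 arrays. OsCPK5, whose product is known to phosphorylate an NADPH oxidase in rice roots, measured 817, 794 and 829 in dst and 832, 819 and 768 in the wild type. Its log2 difference was 0.01 ± 0.12, with a 95% interval of -0.25 to 0.28. OsCPK19 measured 3700, 3691 and 3750 in dst and 3608, 4288 and 4019 in the wild type, and OsCPK7 measured 3231, 3451 and 2674 in dst and 3155, 2591 and 2759 in the wild type. Their differences were -0.09 ± 0.10 and 0.13 ± 0.13. OsCPK13, the kinase first described under the name OsCDPK7 for cold, salt and drought tolerance, averaged 2483 ± 198 in dst and 2329 ± 255 in the wild type (SD, n = 3 each). The gene table gives the name OsCDPK7 to both OsCPK7 and OsCPK13, and neither differed beyond the spread of its arrays.

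Several CPK genes with known roles in drought, salt or cold responses of rice were measured at usable signal. OsCPK9, which acts in drought tolerance and stomatal closure, averaged 803 ± 62.3 in dst and 892 ± 142 in the wild type (SD, n = 3 each), a log2 difference of -0.14 with a 95% interval of -0.47 to 0.19. OsCPK17, which acts in the cold response, averaged 970 ± 117 in dst and 1054 ± 133 in the wild type. OsCPK18, which acts on a mitogen-activated protein kinase in defence, averaged 605 ± 82.9 in dst and 646 ± 51.8 in the wild type. OsCPK23, also known as SPK and linked to starch storage in seeds, averaged 1051 ± 37.0 in dst and 1163 ± 182 in the wild type. In all 4 the groups overlapped and the interval stayed within 2-fold. The same held for OsCPK20, with 1424, 1498 and 1378 in dst and 1469, 1209 and 1595 in the wild type and a log2 difference of 0.02 ± 0.13.

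The signals of 6 CPK genes were too low or too variable for a bound of 2-fold. OsCPK12, which acts in salt tolerance and lowers the accumulation of hydrogen peroxide in rice, measured 182, 154 and 80.2 in dst and 106, 213 and 143 in the wild type. The groups overlapped throughout, and the interval of -1.11 to 0.76 on the log2 scale allows either direction. OsCPK21, which acts in abscisic acid and salt responses, measured 82.6, 57.8 and 98.5 in dst and 83.7, 85.2 and 18.4 in the wild type. OsCPK22 measured 44.6, 64.4 and 26.4 in dst and 23.2, 28.7 and 13.5 in the wild type, with a log2 difference of 1.03 ± 0.65 and an adjusted p of 0.734. OsCPK2 measured 19.4, 7.8 and 23.1 in dst and 6.7, 42.7 and 7.7 in the wild type. The log2 difference of OsCPK2 was 0.22 ± 0.83, although its linear mean was 16.8 in dst and 19.0 in the wild type, since the wild-type array at 42.7 carried most of that mean. OsCPK29 measured 9.6, 19.9 and 95.9 in dst and 37.0, 51.8 and 61.1 in the wild type, with dst arrays both below and above all wild-type arrays.

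**Figure D3:**
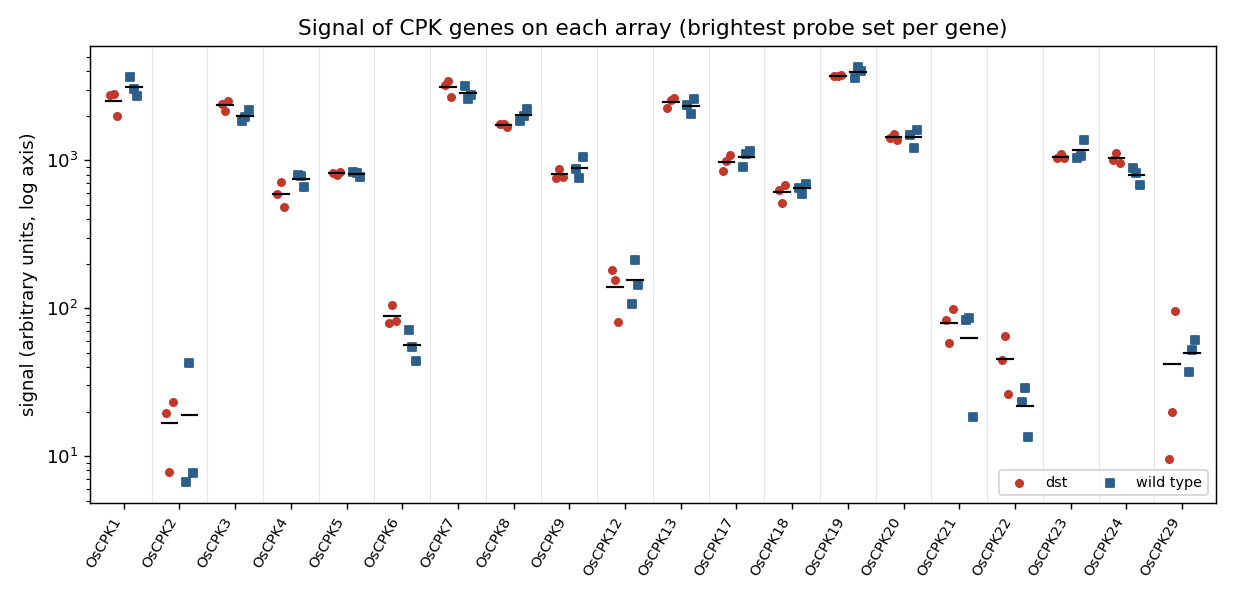
Signal of the 20 CPK genes on each array, on a log axis in arbitrary units, with dst arrays as red circles to the left and wild-type arrays as blue squares to the right of each gene, in order of replicate number; black bars are the means of 3 arrays. With the brightest probe set of each gene, OsCPK24 and OsCPK6 have all dst points above the wild-type points. OsCPK8 has them below, and the other 17 genes overlap.

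Among the 24 CIPK genes every comparison of the brightest probe set overlapped between the groups. OsCIPK01 measured 5588, 7233 and 4394 in dst, against 9880, 7203 and 6915 in the wild type. The highest dst value lay above 2 of the 3 wild-type values, the log2 difference was -0.49 ± 0.19, and the 95% interval ran from -0.93 to -0.05. Among the brightest probe sets of the CIPK genes, that of OsCIPK01 had the smallest p, with an adjusted p of 0.507. Over the alternative fits its adjusted p ranged from 0.207 to 0.777. OsCIPK06 measured 947, 890 and 1248 in dst and 594, 899 and 926 in the wild type. Its log2 difference was 0.36 ± 0.20 with an adjusted p of 0.680. OsCIPK16 measured 347, 184 and 319 in dst and 259, 473 and 513 in the wild type, a log2 difference of -0.54 ± 0.32 with an adjusted p of 0.711.

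The SOS module exports sodium from plant cells, and in rice it is made of the sensor CBL4, the kinase OsCIPK24 and the exchanger SOS1. OsCIPK24 measured 882, 978 and 854 in dst and 641, 774 and 940 in the wild type. One wild-type array lay inside the range of the dst arrays, and the log2 difference was 0.22 ± 0.16 with a 95% interval of -0.14 to 0.58. CBL4 measured 387, 432 and 678 in dst and 445, 658 and 505 in the wild type, a log2 difference of -0.13 ± 0.24 with an interval of -0.66 to 0.41. Neither the kinase nor its sensor differed beyond the spread of the arrays, and SOS1 was not analysed here.

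OsCIPK23 is known to act with CBL1 on the potassium channel AKT1 in rice and to affect drought tolerance. Its signals were 1654, 1757 and 2000 in dst and 1850, 1703 and 1893 in the wild type, a log2 difference of -0.01 ± 0.11 with a 95% interval of -0.27 to 0.24. AKT1 itself measured 666, 516 and 632 in dst and 802, 609 and 682 in the wild type, with a log2 difference of -0.21 ± 0.16 and an adjusted p of 0.805. The kinase and the channel thus both overlapped between the groups.

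OsCIPK12, which raises drought tolerance when overexpressed in rice, measured 126, 168 and 130 in dst and 192, 160 and 208 in the wild type. A single wild-type array lay below the highest dst array, and the log2 difference was -0.41 ± 0.28 with an adjusted p of 0.770. OsCIPK30, its direct neighbour in the gene order, was read at 27.2, 10.6 and 9.8 in dst and 11.9, 16.8 and 3.8 in the wild type, too low for a bound. OsCIPK20 measured 103, 141 and 207 in dst and 170, 141 and 189 in the wild type, with a log2 difference of -0.20 ± 0.34. The groups of OsCIPK20 and OsCIPK30 were interleaved.

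Further CIPK genes also overlapped between the groups. OsCIPK31, which acts in stress responses of germinating seeds and seedlings, averaged 3545 ± 698 in dst and 3628 ± 483 in the wild type (SD, n = 3 each). OsCIPK14, linked to defence responses in cultured cells, averaged 4496 ± 740 in dst and 4686 ± 559 in the wild type. OsCIPK19 averaged 3735 ± 362 in dst and 3851 ± 618 in the wild type. OsCIPK32 averaged 5337 ± 513 in dst and 4993 ± 253 in the wild type, with a log2 difference of 0.09 ± 0.11. Each of these 4 intervals lay between -0.41 and 0.34 on the log2 scale. The interval of OsCIPK05, at -0.65 to 0.55, was wider, with 3886, 5309 and 2585 in dst and 5454, 3262 and 3328 in the wild type.

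Wild-type replicate 1 gave the lowest of the 6 values in 9 of 24 CIPK genes, or 37.5%, against 20.6% of all genes. The genes are OsCIPK02, OsCIPK06, OsCIPK10, OsCIPK18, OsCIPK19, OsCIPK24, OsCIPK25, OsCIPK29 and OsCIPK32. OsCIPK29 and OsCIPK02, direct neighbours in the gene order, both had their lowest value there. In the other families wild-type replicate 1 was lowest in 3 of 20 CPK and 1 of 7 CBL genes. Over all 51 members it was lowest in 13, or 25.5%. Dst replicate 3 was also lowest in 13 of 51 members and in 7 of 24 CIPK genes, against 17.4% of all genes. Wild-type replicate 3 gave the highest value in 15 of 51 members, or 29.4%, against 16.8% of all genes. Wild-type replicate 1 was picked for naming after these values were seen. OsCIPK29 measured 467, 348 and 670 in dst and 235, 465 and 725 in the wild type. OsCIPK18 measured 2319, 2139 and 3236 in dst and 1428, 2402 and 2931 in the wild type. In both genes the wild-type arrays spread more widely than the 2 group means differed. By contrast OsCIPK08 measured 1416, 1256 and 972 in dst and 1235.3, 1235.2 and 1234.0 in the wild type, so only the dst arrays spread. OsCIPK17 had the opposite course, with 627, 612 and 616 in dst and 863, 650 and 533 in the wild type. The log2 differences of these 2 genes were -0.04 and -0.11, both within 2-fold by their intervals.

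The 7 CBL sensors likewise gave no call and no separation. CBL6 measured 3626, 3763 and 3538 in dst and 3561, 3607 and 3563 in the wild type. With a standard error of 0.09 its log2 difference of 0.03 had the narrowest interval of all 51 members, from -0.18 to 0.23. CBL3 measured 1547, 1645 and 2000 in dst and 1812, 1813 and 2277 in the wild type, a log2 difference of -0.19 ± 0.14 with an adjusted p of 0.792. CBL2, whose product is known from the vacuolar membrane of cereal aleurone cells, measured 895, 985 and 879 in dst and 783, 788 and 1037 in the wild type. Its log2 difference was 0.09 ± 0.15.

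CBL10, linked in rice to flooding tolerance during germination, averaged 666 ± 151 in dst and 663 ± 98.0 in the wild type (SD, n = 3 each), a log2 difference of -0.01 with an interval of -0.45 to 0.43. CBL9 measured 321, 468 and 247 in dst and 475, 366 and 227 in the wild type, a log2 difference of -0.03 ± 0.32. CBL5, which the gene table also lists as CBL2, measured 16.9, 93.1 and 54.2 in dst and 136, 10.4 and 93.4 in the wild type. The arrays of each group spanned most of the range of the other, and the interval of CBL5 from -2.52 to 2.10 gives no useful bound.

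The remaining CIPK genes, OsCIPK07, OsCIPK10, OsCIPK11, OsCIPK21, OsCIPK25 and OsCIPK26, had intervals within 2-fold and adjusted p of 0.779 or more. OsCIPK26 had the largest difference of these, with 287, 316 and 277 in dst and 354, 310 and 389 in the wild type, a log2 difference of -0.26 ± 0.18. A single wild-type array of OsCIPK26 lay below the highest dst array. OsCIPK25 measured 5039, 4730 and 5415 in dst and 3567, 4839 and 5298 in the wild type, a difference of 0.17 ± 0.15.

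**Figure D4:**
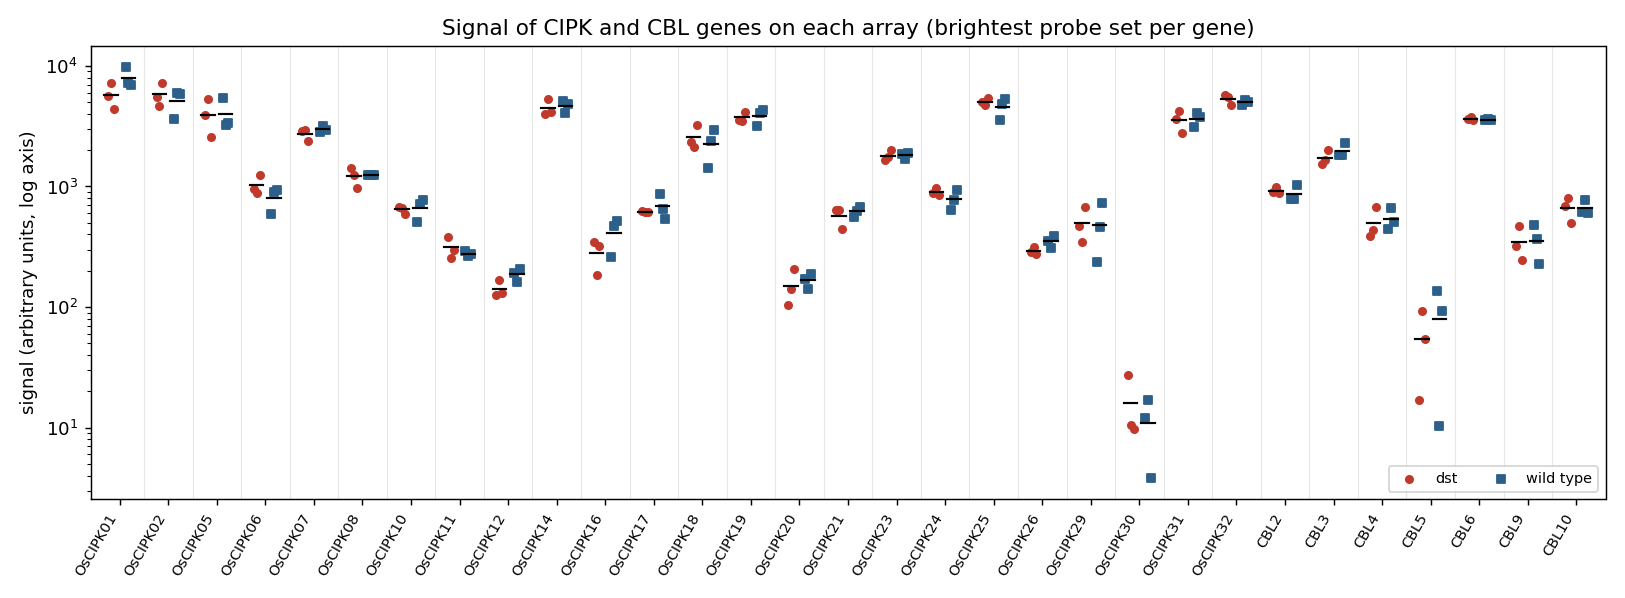
Signal of the 24 CIPK and 7 CBL genes on each array, on a log axis in arbitrary units, with dst arrays as red circles to the left and wild-type arrays as blue squares to the right of each gene, in order of replicate number; black bars are the means of 3 arrays. With the brightest probe set of each gene, the groups overlap in all 31 genes. Within a group, the wild-type arrays of OsCIPK08 and CBL6 and the dst arrays of OsCIPK17 are the tightest.

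For 11 member genes several probe sets were read, up to 4 for OsCIPK10. In 9 of them the 95% intervals of the probe sets met. They were apart in OsCPK6 and OsCIPK02, or 18.2% of the 11, against 2.70% of the 3444 genes of the array with several probe sets. The brightest probe set of OsCPK6 measured 79.8, 105 and 81.8 in dst and 71.6, 54.5 and 44.1 in the wild type, with the dst values above and a log2 difference of 0.66 ± 0.46. Its dimmer probe set measured 7.5, 8.9 and 4.6 in dst and 54.0, 18.4 and 30.1 in the wild type, with the dst values below. The log2 difference of the dimmer set was -2.20 ± 0.64 with an adjusted p of 0.293, the smallest of the 65 member probe sets. Both sets of OsCPK6 were read at low signals.

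The brightest probe set of OsCIPK02 measured 5547, 4664 and 7244 in dst and 3634, 5929 and 5881 in the wild type, a log2 difference of 0.19 ± 0.21. Its second probe set followed the same order of arrays, with 1913, 1464 and 2328 in dst and 1001, 2204 and 2084 in the wild type, and a difference of 0.17 ± 0.29. The third and dimmest set measured 187, 91.0 and 23.3 in dst and 387, 236 and 199 in the wild type. All 3 dst values of this set lay below the wild-type values, the log2 difference was -1.84 ± 0.67, and the adjusted p was 0.453. In neither gene did any probe set pass. The 4 probe sets of OsCIPK10, by comparison, gave differences between -0.15 and 0.02.

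**Figure D5:**
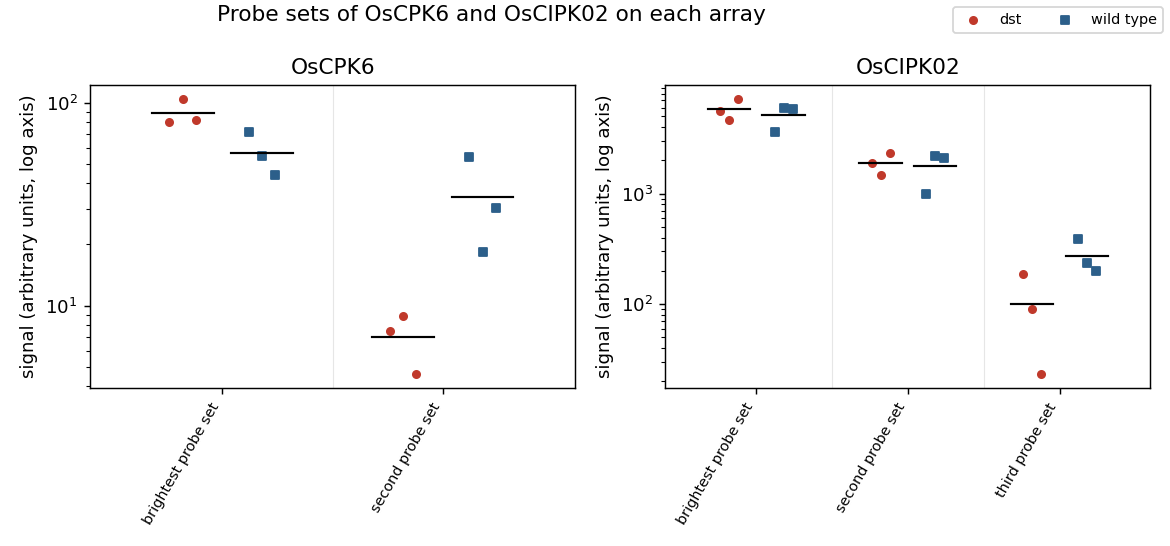
Signal of each probe set of OsCPK6 (left) and OsCIPK02 (right), on log axes in arbitrary units, with dst arrays as red circles to the left and wild-type arrays as blue squares to the right, in order of replicate number; black bars are the means of 3 arrays. In each gene the dimmest probe set has all 3 dst points below the wild-type points, while the brightest has them above in OsCPK6 and overlapping in OsCIPK02.

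Genes of 5 further lists, taken by name, gave no call among 52 genes. The lists cover calcium sensors, calcium transport, SnRK2 kinases, NADPH oxidases, and potassium and sodium transport. Of 26 calmodulins and calmodulin-like proteins, calcium sensors without a kinase domain, none passed, with a median log2 difference of 0.04. CML1 had the smallest p, with 1603, 1751 and 1968 in dst and 2383, 1954 and 2593 in the wild type, a difference of -0.38 ± 0.14 and an adjusted p of 0.445. Of 11 calcium pumps, exchangers and channels none passed, with a median of -0.14. In 5 of these 11 the 3 dst values lay below the wild-type values, against 7.68% of all genes, and in ACA7 they lay above, against 10.7%. ACA10, a calcium-transporting ATPase, measured 1248, 1187 and 1436 in dst and 1982, 1449 and 1628 in the wild type, a difference of -0.38 ± 0.14 with an adjusted p of 0.473.

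None of 10 SnRK2 kinases, which act in abscisic acid and osmotic stress signalling, passed. OsSAPK1 measured 1389, 1528 and 1480 in dst and 1814, 1906 and 1597 in the wild type, with all dst values below, a log2 difference of -0.27 ± 0.11 and an adjusted p of 0.536. All 10 intervals of this list lay within 2-fold. OsrbohB, an NADPH oxidase gene and the only one of its family found by name, measured 3277, 3117 and 2557 in dst and 2443, 2742 and 2678 in the wild type, a difference of 0.18 ± 0.12. Among 4 potassium and sodium transport genes the smallest p belonged to the high-affinity potassium transporter gene HAK5, with 15527, 16992 and 16207 in dst and 18623, 19118 and 16692 in the wild type. Its difference was -0.16 ± 0.11 with an adjusted p of 0.759, and no member of this list passed.

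Array medians lay between 117.6 and 140.9, and precision is limited by how many arrays there are. The log2 ratio of 3' to 5' signal of the rice GAPDH control was 1.01 to 1.36 in dst and 0.35 to 0.62 in the wild type, while that of actin was 1.81 to 2.01 in dst and 1.83 to 2.05 in the wild type, and that of cyclophilin was 0.76 to 0.97 in dst and 0.75 to 1.13 in the wild type. The part of the GAPDH ratio in the values above was not tested. Among 4 leaf photosynthesis markers, CAB2R, the Rubisco small subunit gene OsrbcS and Rubisco activase were bright on every array. RBCS1, the remaining marker, was dim, with 84.5, 75.2 and 51.4 in dst and 87.0, 55.4 and 57.1 in the wild type. The summed signal of the list was 87433 to 107284 in dst and 83109 to 115599 in the wild type. The 8 root markers summed to 8814 to 13509 in dst and 10291 to 13679 in the wild type, with none listed at 0 and none called. NAAT1, NIP2-2 and Lsi1 made up most of that sum. The gene table also names NIP2-2 as Lsi6, and whether the sum reads root tissue was not tested. The iron uptake gene osysl15 measured 150, 250 and 478 in dst and 547, 571 and 614 in the wild type. All its dst values lay below, with an adjusted p of 0.340. The 9 flower markers summed to 2171 to 2490 in dst and 2180 to 2570 in the wild type, and none was called. The brightest of them, at means of 1136 in dst and 1199 in the wild type, entered under the name MADS2. The gene table also names that gene OsMADS18 and OsMADS28. A separate gene named MADS2 averaged 91.9 in dst and 69.2 in the wild type, and 5 of the 9 had a mean signal under 100. The part of these markers in the members' values was not tested.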

How the data were processed

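RNA of 6 shoot samples was prepared with Trizol, biotin-labelled and hybridised to Affymetrix arrays, per the labels' protocols. The authors deposited a linear signal intensity for each probe set on each array; the software is not given in the sources used here, and 2% trimmed means of 500.1 on every array show a common scaling. Signals were floored at 1 before taking log2. Leaving out 187 controls, the 57194 rice probe sets entered 1 fit in limma 3.58.1 (R 4.3.3; lmFit, then eBayes with trend, without covariates), with no filter on low signal, Benjamini-Hochberg adjustment over all of them and a threshold of 0.05. The fit was tested on simulated data.

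Gene names came from the platform annotation and the NCBI RefSeq table of assembly ASM3414082v1, used for names and gene order only; 22436 probe sets have 1 gene. The probe set with the highest mean log2 signal stood for a gene. Probe sets of 1 gene can also read related transcripts. Members, lists and alternatives were chosen with earlier results of these data known. Named members are, in each family, the 5 with the smallest p, the 3 with the highest and 2 with the lowest mean signal, and genes with probe sets apart; other lists give the gene with the smallest p. The remaining members, those low on wild-type replicate 1, AKT1, ACA7 and the markers were named after their values were seen. No annexin gene was found by name. Figures used matplotlib 3.10.9 and Python 3.11.15.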

Additional observations from a re-analysis of the deposited data

How the results depend on the processing

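No member gene passed the threshold in any of 16 alternative fits, among them quantile normalization, median centring, an offset of 16, array weights and each array left out, nor at an adjusted p under 0.01. A filter at the 40th percentile of mean signal kept 44 of 51 members. At an unadjusted p under 0.05 the members numbered 0 without dst replicate 1 and 4 without wild-type replicate 3, against 2 in the main fit. They numbered 6 with the replicate block and 7 with the third arrays as a block. The share of all genes at that p was not taken in these fits, so these counts have no background beside them. The count of members bounded within 2-fold ranged from 38 to 44. Of all probe sets 251 had changed, and 37 did so without the variance trend, 455 with the third arrays as a block, 102 at an adjusted p under 0.01 and 101 to 214 with 1 array left out, with a fall of over 1.5 times for each array except dst replicate 3. The cause was not tested for the trend and the block. The replicate block gave 328. Deviations of arrays with the same number correlated at 0.02, 0.04 and 0.09 over 57194 probe sets. Arrays with different numbers were not compared, so whether the numbers pair the samples was not tested.

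The median log2 difference of CPK genes was -0.102 with array weights, -0.100 with the filter, -0.0728 with median centring and -0.124 to -0.000581 with 1 array left out. That of CIPK and CBL genes was 0.00141 with array weights, -0.0682 with median centring, 0.106 with replicates 1 and 2 only, and -0.0743 to 0.0411 with 1 array left out, positive without dst replicate 3 or wild-type replicate 2. The cause was not tested.

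Among the named genes, signs of uncalled differences turned as follows. Over all 51 members the count with a higher mean in dst was 21, against 18 once arrays were centred on their medians and 29 when only replicates 1 and 2 were used. With array weights OsCPK2 was -0.160, CBL5 0.107 and CBL9 0.0312. With replicates 1 and 2 only OsCPK2 was -0.459 and CBL5 0.0763. With median centring CBL6 was -0.00749. With the mean of a gene's probe sets OsCPK6 was -0.770, OsCIPK02 -0.493, OsCIPK12 0.0182, CBL9 0.211 and HAK5 0.0417. With 1 array left out OsCPK2 ranged from -0.257 to 1.08, OsCIPK02 from -0.0452 to 0.336, OsCIPK30 from -0.000203 to 1.07, OsCIPK20 from -0.455 to 0.0446, CBL4 from -0.372 to 0.0328, CBL5 from -1.36 to 0.498 and CBL9 from -0.323 to 0.211. Without detection calls, signal over background is not known, which limits the values of members under a signal of 100.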
